A study of Mus musculus with 16 samples.

Results

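The enzymes of central carbon metabolism were followed through a single-cell-scale amplification of mouse embryonic stem cell RNA. The list held 40 genes of glycolysis, the entry of pyruvate into mitochondria, the tricarboxylic acid (TCA) cycle and the pentose phosphate pathway. Members were the probe sets whose platform annotation names 1 of these genes, under its current or a former symbol, as the only gene. They came to 92 of the 45101 probe sets on the array and covered 37 genes. Gpi1, Eno1 and G6pdx have no probe set of their own under this rule, so no value is given for them. Of the 92 probe sets, 83 passed a filter on low values and were tested, and every one of the 37 genes kept at least 1 tested probe set. The list was drawn up by pathway and not by the measured values.

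The study hybridised 16 expression arrays with RNA of 1 mouse embryonic stem cell line, E14tg2a. For 8 amplified arrays, total RNA was diluted to 10 pg and its cDNA was amplified by PCR with a procedure named V1V3, independently for each array. For 8 nonamplified arrays, 5 µg of the undiluted total RNA was labelled directly. Both groups carried no treatment or genetic change named in the labels, and both are labelled technical replicates, so p-values measure the spread of the procedure and say nothing of other cultures or lines. Each comparison therefore asks how far the level of an enzyme transcript after amplification differed from its level without amplification, and how far repeated amplifications of the same RNA differed from each other.

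As background, glycolysis splits glucose into pyruvate. Lactate dehydrogenase turns pyruvate into lactate, or the pyruvate dehydrogenase complex turns it into the acetyl group that the TCA cycle oxidises. The pentose phosphate pathway branches from glycolysis and yields NADPH and the ribose of nucleotides. Mouse embryonic stem cells in the naive state are known to use both glycolysis and mitochondrial oxidation.

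The arrays carried the transcripts that the label calls for. All 11 listed embryonic stem cell markers averaged over 500 intensity units on nonamplified arrays, and 9 of the 11 did so on amplified arrays. The summed intensity of these markers was 40937 to 45462 on amplified arrays and 32476 to 34258 on nonamplified arrays. Of the markers of fibroblast feeder cells (10 measured), endoderm and trophoblast (8), mesoderm and neural tissue (5) and blood (3), 0 averaged over 500 in either group. Their summed intensity on amplified and on nonamplified arrays was 254 to 424 and 361 to 469 for feeder cells, 467 to 664 and 240 to 342 for endoderm and trophoblast, 717 to 1255 and 471 to 553 for mesoderm and neural tissue, and 184 to 283 and 135 to 182 for blood, without overlap for the last 3 of these lists. The part of these differences in the enzyme values was not tested. The median intensity of an array was 33.9 to 36.7 on amplified arrays and 49.7 to 53.8 on nonamplified arrays, and 6.77% to 8.36% of the probe sets sat at the lowest value of 1 on amplified arrays, against 2.08% to 3.22% on nonamplified arrays. These are levels in RNA of many cells, in which fewer cells with a transcript and less of it per cell cannot be told apart.

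Enzyme transcripts moved in both directions after amplification, as did those of the whole array. The enzyme counts below were not tested against the shares of the array. Among the 83 tested probe sets, 25 were called higher, 29 were called lower and 29 were not called, on the scale of log2(intensity + 16) and at an adjusted p under 0.05. Over all 27022 tested probe sets, 24.7% were called higher, 32.8% lower and 57.5% in either direction. The median log2 fold change was -0.03 over the enzyme probe sets and -0.17 over all tested probe sets. Values of the groups did not overlap for 36 enzyme probe sets, 16 of them higher and 20 lower on amplified arrays, and such probe sets made up 33.6% of all those tested. A difference of at least 2-fold was seen for 9 probe sets called higher and 18 called lower. The matching shares over all tested probe sets are not given here, so these 2 counts are not set against the array.

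Each gene was then taken at 1 probe set, its lead probe set, chosen as the tested one whose mean over the nonamplified arrays was highest. By lead probe sets 12 of the 37 enzymes rose, 10 fell and 15 did not pass the test, where 23.5% of all 13660 genes were called higher and 29.4% lower. The largest rises were those of Pdhb, Pdk1 and Mdh2, and the largest falls those of Sdhd, Idh1 and Ogdh. Log2 fold changes ran from -3.25 for Sdhd to 1.46 for Pdhb, with a median of 0.09 over the 37 genes against -0.15 over all genes. How the arrays are scaled to each other moved this split. Of the calls on enzyme probe sets, 46.3% were higher as deposited, 13.0% after quantile normalization, 68.5% after centring each array on its median, 61.8% after scaling on the brighter 50% of each array and 20.0% after scaling on the hybridization controls. Of all calls on the array, the share that was higher was 43.0%, 50.7%, 66.4%, 59.0% and 23.8% in the same order, so the enzyme share lay furthest from that of the array after quantile normalization. The median log2 fold change of all tested probe sets was -0.17, -0.03, 0.30, 0.14 and -0.54 under these 5 scalings, in the same order, and that of the enzyme probe sets was -0.03, -0.68, 0.48, 0.31 and -0.44. Under all 5 scalings 8 enzymes were called in the same direction at their lead probe sets. Pdk1, Pdhb, Suclg1 and Mdh2 were higher, and Pfkm, Idh1, Ogdh and Sdhd were lower, on amplified arrays. The fold change of 16 of the 37 genes changed its sign with the scaling. The matching counts over all genes are not given here, so neither count is read as particular to the enzymes. Other probe sets of these genes were not part of either count.

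**Figure D1:**
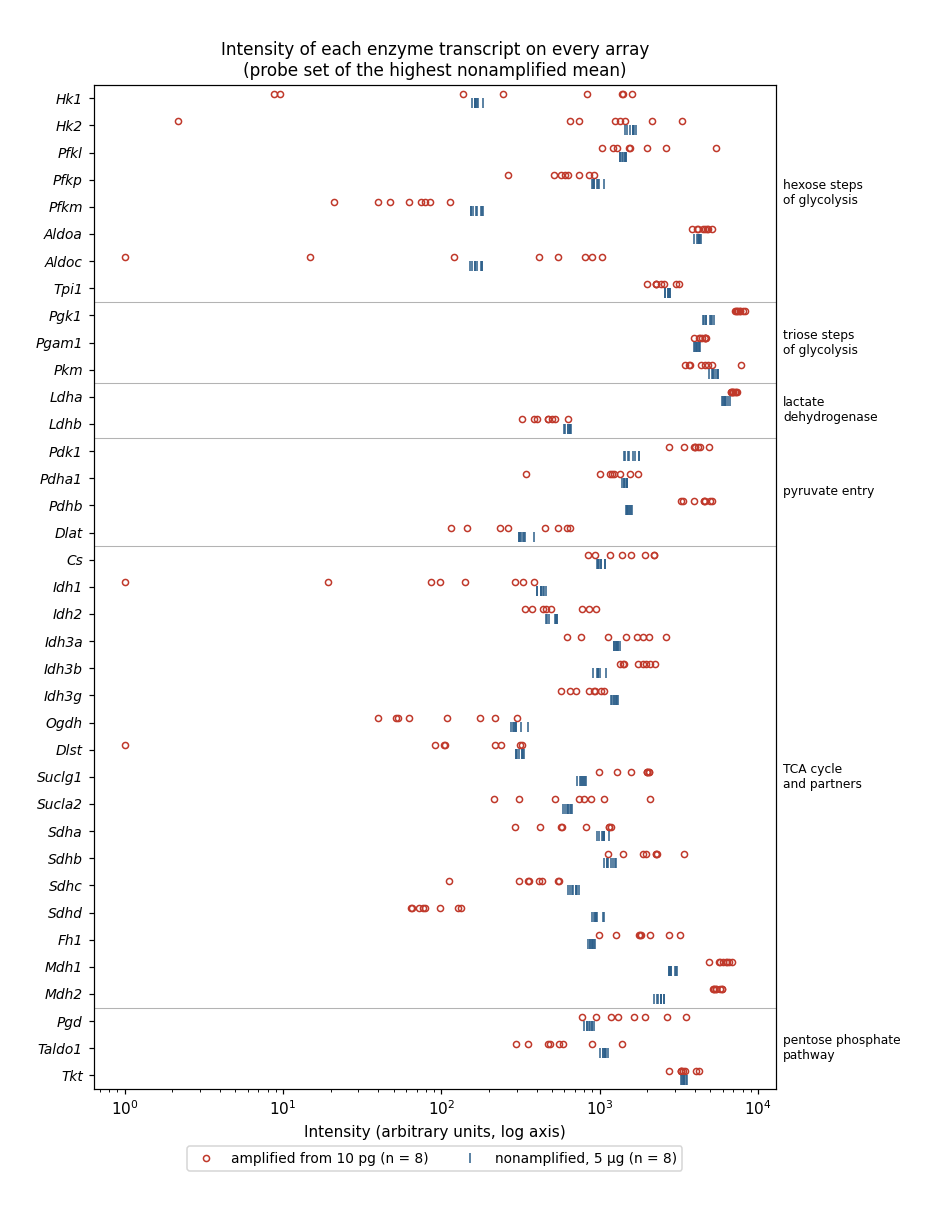
Intensity of each enzyme transcript on every array, on a log axis, at its lead probe set. Red circles are the 8 amplified arrays and blue ticks the 8 nonamplified arrays, with genes ordered by role. Amplified values of Hk1, Hk2, Aldoc, Idh1 and Dlst spread over more than a 100-fold range, while those of Pgk1, Pgam1, Ldha and Mdh2 lie close together.

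By lead probe sets and as deposited, the steps from glucose to triose phosphate had no enzyme called higher, where 23.5% of all genes were. Of 8 measured genes, Pfkp and Pfkm fell and 6 did not pass the test. Scaling changed this. Pfkl, Aldoa and Tpi1 were called higher after median centring (0.90, 0.64 and 0.43) and on the brighter 50% (0.71, 0.45 and 0.24). After quantile normalization Aldoa (-0.75) and Tpi1 (-0.98) were called lower, as was Tpi1 on the hybridization controls (-0.55). Pfkm, the muscle type subunit of phosphofructokinase, which commits sugar to glycolysis, had values of 20.9 to 114 on amplified arrays (median 68.5) and 153 to 185 on nonamplified arrays (median 167). All 8 amplified values lay below all 8 nonamplified values, and the log2 fold change was -1.27 (SE 0.20, adjusted p = 4.15e-05). Pfkp, the platelet type subunit, fell by 0.65 on the log2 scale (SE 0.19, adjusted p = 0.00785), with 7 of 8 amplified arrays below the nonamplified range, but the fall did not pass the test after median centring (-0.10) or scaling on the brighter 50% (-0.29). At the other Pfkp probe sets the values fell further: 1430634_a_at read 26.0 to 70.7 on amplified arrays (median 37.7) and 345 to 440 on nonamplified arrays (median 408), and 1437759_at read 2.18 to 22.2 on amplified arrays (median 14.3) and 129 to 166 on nonamplified arrays (median 151). Neither overlapped, with log2 fold changes of -2.91 (adjusted p = 7.11e-12) and -2.55 (adjusted p = 2.49e-10), and both changed more than the lead probe set, by -2.26 (adjusted p = 2.77e-06) and -1.90 (adjusted p = 1.94e-05). Pfkl, the liver type, was not called at 0.35 at its lead probe set (adjusted p = 0.276). Its probe set 1450269_a_at had -0.37, not called (adjusted p = 0.386). At 1453541_at, Pfkl was called lower at -1.08 (adjusted p = 7.57e-07), with no overlap. Both changes differed from that of the lead probe set (adjusted p = 0.00109 and 0.000372).

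The hexokinases, which trap glucose in the cell by phosphorylating it, were among the least reproducible members. Hk1 had values of 8.77 to 1604 on amplified arrays (median 541) and 157 to 182 on nonamplified arrays (median 165). On 5 amplified arrays it lay above every nonamplified value and on 3 it lay below. Its fold change of 0.72 on the log2 scale therefore had an SE of 0.84 and was not called (adjusted p = 0.490). Hk2 had values of 2.18 to 3333 on amplified arrays (median 1296) and 1450 to 1685 on nonamplified arrays (median 1616). It was above the nonamplified range on 2 amplified arrays and below it on 6, and its change of -1.005 was not called (SE 0.78, adjusted p = 0.289).

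Aldolases cleave the hexose into 2 triose phosphates. Aldoc, the form best known from brain, had values of 1 to 1037 on amplified arrays (median 481) and 151 to 181 on nonamplified arrays (median 166), above the nonamplified range on 5 amplified arrays and below it on 3. The change of 0.43 was not called (SE 0.78, adjusted p = 0.666). Aldoa, the widely expressed form, had values of 3811 to 5101 on amplified arrays (median 4543) and 3972 to 4343 on nonamplified arrays (median 4266) at its lead probe set. The groups overlapped and the change of 0.08 was not called (SE 0.074, adjusted p = 0.378). Tpi1, which interconverts the triose phosphates, was not called at its lead probe set (-0.13, adjusted p = 0.276). At 1415918_a_at, however, Tpi1 read 902 to 1808 on amplified arrays (median 1305) and 2337 to 2605 on nonamplified arrays (median 2478), with no overlap. Its change there was -0.91 (SE 0.12, adjusted p = 4.24e-06), which differed from that of the lead probe set by -0.78 (SE 0.085, adjusted p = 8.28e-07).

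The triose steps, from 1,3-bisphosphoglycerate to pyruvate, held some of the most even transcripts of the list. Pgk1, which makes the pathway's initial ATP, had values of 7136 to 8285 on amplified arrays (median 7587) and 4505 to 5258 on nonamplified arrays (median 4844). The ranges did not overlap, and Pgk1 rose by 0.64 on the log2 scale as deposited (SE 0.067, adjusted p = 3.16e-07). The call was lost after quantile normalization (-0.096) and on the hybridization controls (0.22). Pkm, the pyruvate kinase of most growing cells, had values of 3449 to 7761 on amplified arrays (median 4489) and 4917 to 5621 on nonamplified arrays (median 5283). Amplified array 8 held the highest value of all and 6 amplified arrays lay below the nonamplified range. The change of -0.22 was not called (SE 0.14, adjusted p = 0.182), but without amplified array 8 it was -0.33 and passed the test (adjusted p = 0.00698). Pkm was also called lower after quantile normalization (-0.96) and on the hybridization controls (-0.65). Pgam1, which shifts the phosphate of 3-phosphoglycerate, was not called (0.11, adjusted p = 0.173).

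The 2 lactate dehydrogenase subunits moved apart. Ldha, the subunit that predominates where lactate is made, had values of 6766 to 7406 on amplified arrays (median 6939) and 5970 to 6690 on nonamplified arrays (median 6188). The ranges did not overlap and the rise of 0.17 was small (SE 0.061, adjusted p = 0.0248). With weights per group the adjusted p of Ldha was 0.211, after quantile normalization its fold change was -0.52, and on the hybridization controls it was -0.26. Ldhb, the subunit best known from heart, had values of 325 to 633 on amplified arrays (median 471) and 596 to 661 on nonamplified arrays (median 639). It fell by 0.46 as deposited (SE 0.11, adjusted p = 0.00196) with 7 of 8 amplified arrays below the nonamplified range. The call was lost after median centring (0.085) and on the brighter 50% (-0.10). All 4 probe sets of Ldhb were called lower as deposited, with log2 fold changes of -0.40 to -0.61.

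At the entry of pyruvate into mitochondria, 2 of 4 genes rose. Pdk1, a kinase that switches the pyruvate dehydrogenase complex off, had values of 2740 to 4921 on amplified arrays (median 4015) and 1419 to 1768 on nonamplified arrays (median 1581). Pdhb, the beta subunit of the complex's decarboxylase, had values of 3251 to 5135 on amplified arrays (median 4562) and 1477 to 1603 on nonamplified arrays (median 1524). For both, all 8 amplified values lay above all nonamplified values. The log2 fold change was 1.29 for Pdk1 (SE 0.11, adjusted p = 2.58e-08) and 1.46 for Pdhb (SE 0.10, adjusted p = 2.24e-09). Pdha1, the alpha subunit of the same enzyme, was not called at -0.40 (adjusted p = 0.177), nor was Dlat, the acetyltransferase core, at -0.03 (adjusted p = 0.935). Pdha1 was called lower after quantile normalization (-1.10) and on the hybridization controls (-0.82). A second probe set of Pdhb, 1448214_at, read 1 to 1086 on amplified arrays (median 36.3) and 52.9 to 81.2 on nonamplified arrays (median 65.4), and its change of 0.09 was not called. For Pdk1, 1423748_at was also called higher (0.88, adjusted p = 0.00258). Its probe set 1435836_at read 1 to 1836 on amplified arrays (median 316) and 284 to 297 on nonamplified arrays (median 294). The change there was -0.88 and was not called (adjusted p = 0.450).

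The TCA cycle and its partners held calls of either sign at lead probe sets. Of 17 genes, 7 rose (Cs, Idh3b, Suclg1, Sdhb, Fh1, Mdh1 and Mdh2), 6 fell (Idh1, Idh3g, Ogdh, Dlst, Sdhc and Sdhd) and 4 did not pass the test (Idh2, Idh3a, Sucla2 and Sdha). Cs, citrate synthase, opens the cycle. It had values of 846 to 2209 on amplified arrays (median 1475) and 964 to 1084 on nonamplified arrays (median 1004), above the nonamplified range on 6 amplified arrays and below it on 2. The rise of 0.51 (SE 0.19, adjusted p = 0.0291) was lost without amplified array 2, 4 or 7 (adjusted p = 0.0569, 0.0572 and 0.0566) and had a value of -0.22 after quantile normalization. The call was also lost on the hybridization controls (0.08).

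At lead probe sets, the genes of isocitrate dehydrogenases changed in different ways. Idh1, the cytosolic NADP form, fell by 1.87 on the log2 scale (SE 0.54, adjusted p = 0.00742) with values of 1 to 387 on amplified arrays and 403 to 460 on nonamplified arrays. Of the 3 subunits of the mitochondrial NAD form, Idh3b rose by 0.81 (adjusted p = 7.83e-06), Idh3g had a log2 fold change of -0.59 (SE 0.12, adjusted p = 0.000449) and Idh3a was not called at 0.12 (adjusted p = 0.702). Idh3b had values of 1353 to 2222 on amplified arrays (median 1818) and 913 to 1095 on nonamplified arrays (median 981), with no overlap. Its call was lost after quantile normalization (0.070) and on the hybridization controls (0.38). Idh3g had values of 573 to 1060 on amplified arrays (median 887) and 1176 to 1303 on nonamplified arrays (median 1251), also with no overlap, and its call was lost after median centring (-0.037) and on the brighter 50% (-0.23). At 1416788_a_at, however, Idh3g was called higher, at 0.80 and with no overlap. The other tested probe sets of Idh3a were called lower, at -2.31, -1.09 and -0.62. These differences thus belong to the lead probe sets and not to the subunits.

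The oxoglutarate dehydrogenase complex makes succinyl-CoA. Ogdh, its decarboxylase, fell by 1.42 (SE 0.32, adjusted p = 0.00114), with values of 39.8 to 300 on amplified arrays and 276 to 351 on nonamplified arrays. Dlst, its succinyltransferase core, had values of 1 to 325 on amplified arrays (median 163) and 296 to 334 on nonamplified arrays (median 315). Its change of -1.20 (SE 0.47, adjusted p = 0.0402) passed the test narrowly: it was lost in 11 of the 16 fits that leave out 1 array, with adjusted p up to 0.0655, and with a pseudocount of 1 (adjusted p = 0.0975). Without amplified array 2, on which Dlst read 1, the change was -0.76 and was called (adjusted p = 0.0152). The call of Dlst was also lost after median centring (-0.71) and on the brighter 50% (-0.89). Suclg1, the shared subunit of succinyl-CoA ligase, rose by 1.11 (SE 0.14, adjusted p = 3.5e-06) with no overlap.

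Succinate dehydrogenase has 4 subunits, and they did not move together. Sdhd, a membrane anchor, had the largest fall of the 37 genes: values were 64 to 134 on amplified arrays (median 77.9) and 890 to 1074 on nonamplified arrays (median 954). The log2 fold change was -3.25 (SE 0.13, adjusted p = 2.85e-12), and even the highest amplified value was far below the lowest nonamplified one. Sdhc, the other anchor, fell by 0.92 (adjusted p = 0.00294), a call that was lost after median centring (-0.38). Sdhb, the iron-sulfur subunit, rose by 0.76 (SE 0.17, adjusted p = 0.0011), a call that was lost after quantile normalization (-0.0075) and on the hybridization controls (0.33). Sdha, the flavoprotein, was not called at -0.59 (adjusted p = 0.0568), and passed the test without amplified array 3, 4 or 7 (adjusted p = 0.0244, 0.0259 and 0.0266). Sdha was also called lower after quantile normalization (-1.21) and on the hybridization controls (-1.01).

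The last steps of the cycle rose. Fh1, fumarase, rose by 1.04 (SE 0.19, adjusted p = 0.000186). Mdh2, the mitochondrial malate dehydrogenase, had values of 5186 to 5963 on amplified arrays (median 5447) and 2196 to 2567 on nonamplified arrays (median 2438). Mdh1, its cytosolic counterpart, had values of 4889 to 6878 on amplified arrays (median 6151) and 2737 to 3096 on nonamplified arrays (median 2826). Neither gene's groups overlapped, and the log2 fold changes were 1.19 for Mdh2 (SE 0.067, adjusted p = 1.35e-10) and 1.06 for Mdh1 (SE 0.079, adjusted p = 5.44e-09). After quantile normalization Fh1 had 0.33 and Mdh1 had 0.19, and neither passed the test.

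The pentose phosphate enzymes gave 1 gene of each kind. Pgd, phosphogluconate dehydrogenase, which yields NADPH, had values of 775 to 3502 on amplified arrays (median 1479) and 791 to 917 on nonamplified arrays (median 862). It rose by 0.84 (SE 0.25, adjusted p = 0.00853), with 7 of 8 amplified arrays above the nonamplified range, and the call was lost after quantile normalization (0.15) and on the hybridization controls (0.42). At another probe set, 1423706_a_at, Pgd read 283 to 2167 on amplified arrays and 508 to 595 on nonamplified arrays. Its change there was 0.03 and was not called. Taldo1, transaldolase of the nonoxidative branch, had values of 295 to 1393 on amplified arrays (median 519) and 1001 to 1136 on nonamplified arrays (median 1079). It fell by 0.91 (SE 0.24, adjusted p = 0.00371), below the nonamplified range on 7 amplified arrays and above it on amplified array 8, and the call was lost after median centring (-0.36) and on the brighter 50% (-0.55). Tkt, transketolase, had values of 2757 to 4220 on amplified arrays (median 3322) and 3283 to 3543 on nonamplified arrays (median 3408) and was not called at 0.01 (SE 0.086, adjusted p = 0.959).

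**Figure D2:**
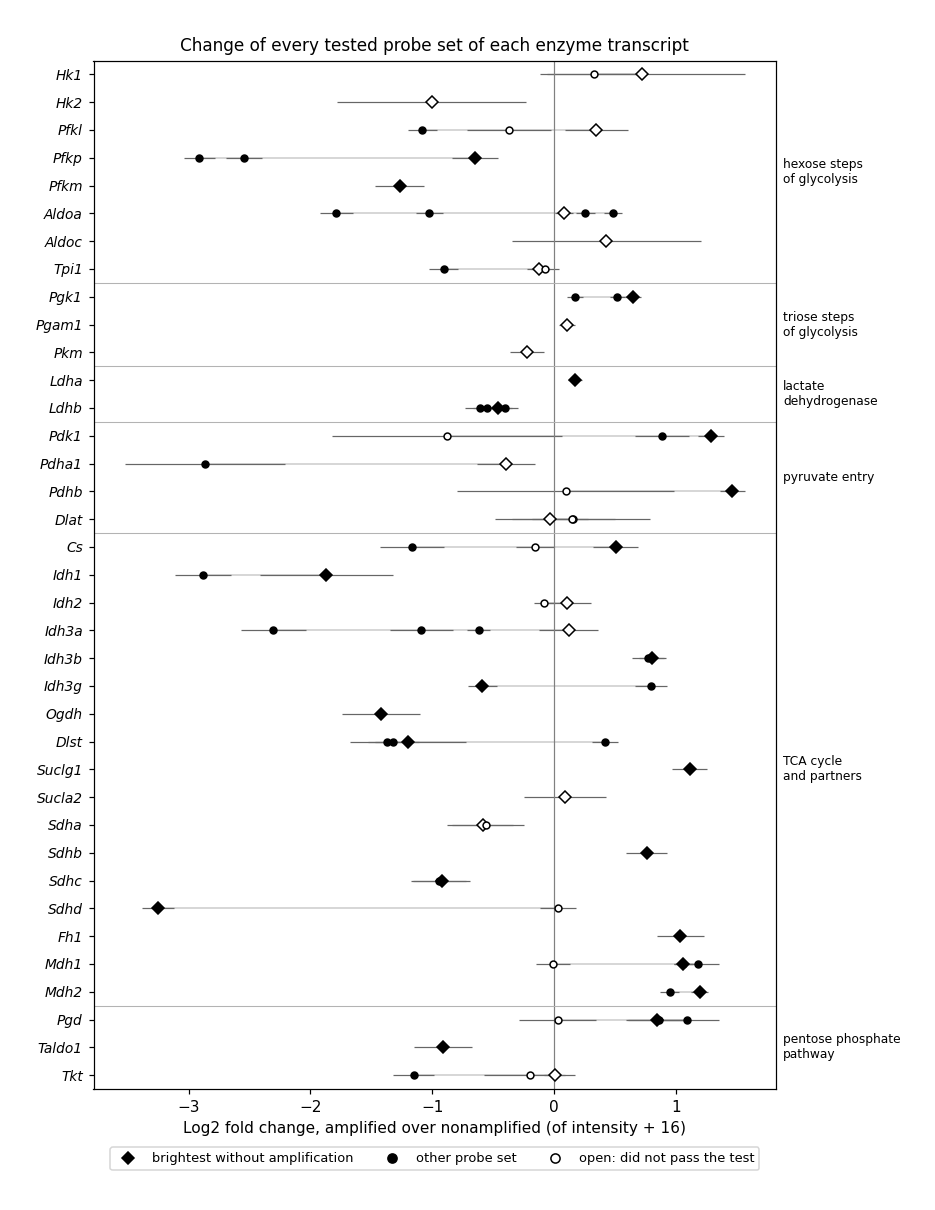
Log2 fold change, amplified over nonamplified, of every tested probe set of the 37 genes, with a bar of 1 SE to each side. Diamonds are lead probe sets, circles the other probe sets of the gene, and open symbols did not pass the test. Aldoa, Cs, Dlst and Idh3g have filled symbols on both sides of 0, and the 2 probe sets of Sdhd lie 3.29 apart.

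Probe sets of the same enzyme often gave different answers, at a share near that of the whole array, and this comparison was made within each array. A common factor per array cancels in it apart from the pseudocount, while quantile normalization does not cancel; the count of calls below was 24 under each of the 5 scalings. For 25 genes with at least 2 tested probe sets, 46 further probe sets were set against the gene's lead probe set. The change differed for 24 of them, in 16 genes: amplification raised 5 and lowered 19 relative to the lead probe set. Over all genes of the array 54.7% of 9169 such differences were called, and their split by direction is not given here. Probe sets whose names end in _x_at or _s_at can bind related transcripts as well, so their values are less certain as a measure of 1 gene. Without them 12 of 23 such differences were called.

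Sdhd showed the widest difference. Against the fall at probe set 1428235_at given above, probe set 1437489_x_at read 568 to 1230 on amplified arrays (median 745) and 696 to 848 on nonamplified arrays (median 776). Its change of 0.03 was not called (adjusted p = 0.863), and the within-array difference between the probe sets changed by 3.29 (SE 0.18, adjusted p = 2.96e-10). A statement on Sdhd thus holds for the probe set and not for the gene.

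In 4 of the 25 genes with at least 2 tested probe sets, 1 probe set was called higher and another lower. The matching share over the whole array is not given here. Aldoa had 5 probe sets, all of type _x_at, with log2 fold changes of 0.48, 0.26, 0.08, -1.02 and -1.79. At the lowest of these, Aldoa read 621 to 1324 on amplified arrays (median 909) and 2948 to 3372 on nonamplified arrays (median 3230), and at the highest it read 1411 to 1721 on amplified arrays (median 1577) and 960 to 1262 on nonamplified arrays (median 1146). Idh3g had -0.59 at 1 probe set and 0.80 at another, which read 1408 to 2740 on amplified arrays (median 2113) and 1102 to 1200 on nonamplified arrays (median 1162), a difference in change of 1.39 (SE 0.084, adjusted p = 8.07e-10). The probe sets of Cs had 0.51, -0.16 and -1.17, and those of Dlst -1.20, -1.37, -1.32 and 0.42.

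Elsewhere a called and an uncalled probe set stood side by side. Mdh1 was called higher at 3 probe sets, with 1.06 at both of its _x_at probe sets and 1.18 at 1434319_at (adjusted p = 1.55e-05), but had -0.01 at 1448172_at, where it read 935 to 1863 on amplified arrays (median 1376) and 1271 to 1569 on nonamplified arrays (median 1350). That difference in change was -1.07 (SE 0.15, adjusted p = 1.02e-05). Tkt, not called at its lead probe set, had -1.15 at 1451015_at, with values of 432 to 1110 on amplified arrays (median 670) and 1501 to 1694 on nonamplified arrays (median 1589). Pdha1 had -0.40 at 1 probe set and -2.87 at the other, and the probe sets of Idh3a ran from -2.31 to 0.12. By contrast the 4 probe sets of Ldhb, the pairs of Idh3b, Sdha and Sdhc and the 3 of Dlat spanned at most 0.21 on the log2 scale.

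Isozymes catalyse the same reaction from different genes. The difference between their transcripts on an array was compared between groups, together with that of Suclg1 and Sucla2, which are not isozymes but partner subunits of succinyl-CoA ligase. Apart from the pseudocount, such a difference is free of scaling by a common factor. Of 8 pairs compared at lead probe sets by an exact 2-sided permutation test over the arrays, the difference changed for 6 at a Benjamini-Hochberg adjusted p under 0.05. The share among other gene pairs of the array is not given here. Over all tested probe sets, 57.5% were called in either direction, so the count is not read as particular to isozymes. For Ldha minus Ldhb it was 3.90 ± 0.24 on amplified arrays and 3.27 ± 0.064 on nonamplified arrays (SD, n = 8 each), a change of 0.63 with no overlap (SE 0.089, exact p = 0.000155, adjusted p = 0.000414). For Idh1 minus Idh2 it was -2.21 ± 1.94 on amplified arrays and -0.24 ± 0.15 on nonamplified arrays, again with no overlap (change -1.98, SE 0.69, exact p = 0.000155, adjusted p = 0.000414). That p is the smallest the 12870 regroupings can give.

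At lead probe sets, phosphofructokinase subunits also moved apart. The other Pfkl probe sets, with log2 fold changes of -0.37 and -1.08, were not compared with Pfkm or Pfkp. The difference Pfkl minus Pfkm was 4.57 ± 0.88 on amplified arrays and 2.96 ± 0.096 on nonamplified arrays (change 1.61, SE 0.31, exact permutation p = 0.000155, adjusted p = 0.000414), with no overlap, although after quantile normalization, which is not a common factor, the change was 0.57 and did not pass (adjusted p = 0.0895). Pfkl minus Pfkp changed by 0.996 (SE 0.39, exact permutation p = 0.0132, adjusted p = 0.0211). For the subunit pair, Suclg1 minus Sucla2 changed by 1.02 (SE 0.41, exact permutation p = 0.0186, adjusted p = 0.0249). The smallest change called was that of Mdh1 minus Mdh2, 0.12 ± 0.14 on amplified arrays and 0.26 ± 0.048 on nonamplified arrays (change -0.13, SE 0.052, exact permutation p = 0.0104, adjusted p = 0.0208).

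The remaining pairs did not pass the test. Hk1 minus Hk2 was -1.40 ± 3.83 on amplified arrays and -3.13 ± 0.11 on nonamplified arrays, and its value on single amplified arrays ran from -5.63 to 6.26. The change was 1.73 (SE 1.35, exact permutation p = 0.242, adjusted p = 0.277). Aldoa minus Aldoc changed by -0.35 (SE 0.82, exact permutation p = 0.682, adjusted p = 0.682). The SEs leave room for changes of more than 1 log2 unit in either pair.

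**Figure D3:**
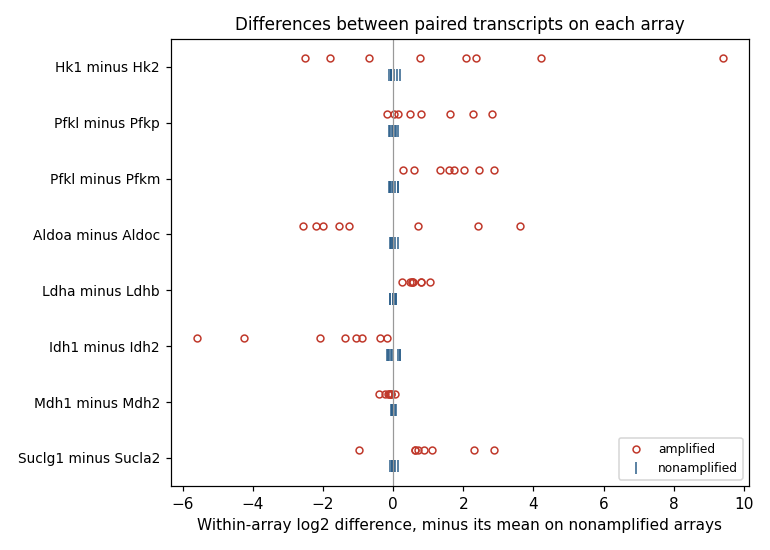
Within-array log2 difference between 8 pairs of transcripts, of isozymes or, for Suclg1 and Sucla2, partner subunits, minus its mean on nonamplified arrays. Red circles are amplified and blue ticks nonamplified arrays, 8 of each per pair. Amplified values of Ldha minus Ldhb and Pfkl minus Pfkm lie wholly to the right of the nonamplified ones and those of Idh1 minus Idh2 wholly to the left, while those of Hk1 minus Hk2 and Aldoa minus Aldoc fall on both sides.

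Repeated amplifications of the same RNA differed far more than repeated labellings without amplification. The median SD of log2 values over 8 arrays was 0.44 on amplified arrays and 0.070 on nonamplified arrays for the 83 enzyme probe sets, against 0.51 and 0.13 for all tested probe sets. A test on absolute deviations from the group median called 40 of the 83 more variable on amplified arrays and 0 less variable, where 30.9% of all tested probe sets were called more variable. By role, 21 of 36 probe sets of the TCA cycle, 7 of 8 of the pentose phosphate pathway, 6 of 10 of pyruvate entry and 6 of 19 of the hexose steps were called more variable, and 0 of the 5 of the triose steps and 0 of the 5 of lactate dehydrogenase. These counts take several probe sets of 1 gene. At lead probe sets they were 11 of 17, 2 of 3, 1 of 4, 3 of 8, 0 of 3 and 0 of 2 genes, in the same order. The roles were not tested against each other. The count of 40 fell to between 16 and 23 when 1 amplified array was left out, whichever it was, and to 8 after scaling on the hybridization controls.

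The spread ran from Ldha to Hk1. At lead probe sets, the smallest SDs on amplified arrays were 0.050 for Ldha, 0.072 for Pgk1 and 0.079 for Mdh2, against 0.054, 0.082 and 0.076 for the same genes on nonamplified arrays. The largest were 2.53 for Hk1, 2.33 for Hk2 and 2.32 for Aldoc, against 0.058, 0.074 and 0.087 on nonamplified arrays. Of the latter, Hk1 (adjusted p = 0.006) and Aldoc (adjusted p = 0.0454) were called more variable, and Hk2 was not (adjusted p = 0.156).

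**Figure D4:**
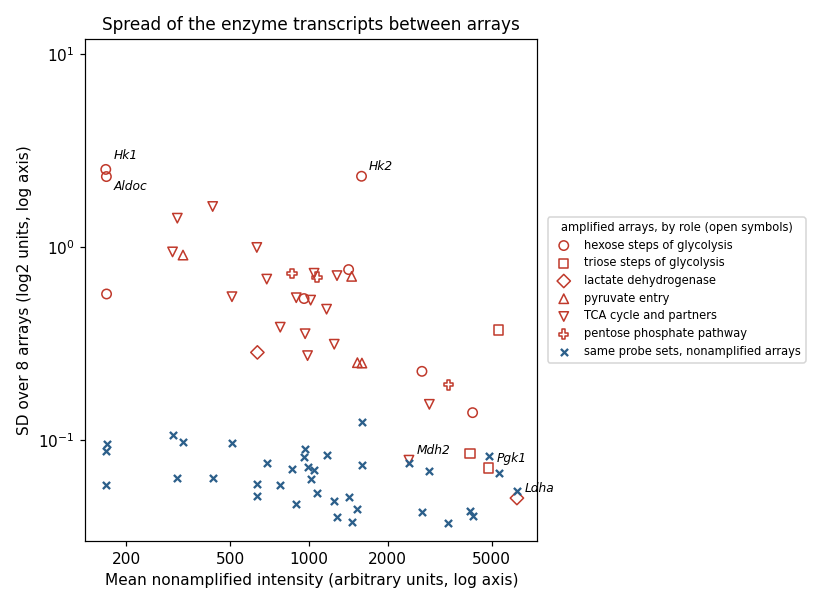
SD of log2(intensity + 16) over 8 arrays against the mean nonamplified intensity, both on log axes, for 1 probe set of each of 37 genes. Open red symbols are amplified arrays, with the shape giving the role, and blue crosses are the same probe sets on nonamplified arrays. Labelled are the 3 largest amplified SDs (Hk1, Hk2 and Aldoc, 2.32 to 2.53) and the 3 smallest (Ldha, Pgk1 and Mdh2, 0.050 to 0.079).

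Some enzyme probe sets read near the floor of the array in single amplifications. A dropout was counted where a probe set ranked in the upper 50% by its nonamplified mean but under the 25th percentile of the array in question. Because the nonamplified arrays themselves set which probe sets counted as present, no comparison with their dropouts was made. Of 84 enzyme probe sets in that upper range, 3 to 6 dropped out on each amplified array, a share of 5.65% ± 1.39 (SD, n = 8), and over the whole array the share on amplified arrays was 14.5% ± 0.80 (SD, n = 8). In all, 16 of these 84 enzyme probe sets dropped out on at least 1 amplified array, against 8523 of 22518 over the whole array. The enzyme probe sets were not matched to the array for brightness, and its part in these shares was not tested. The most frequent were Idh3b at 1441271_at, which read 1.22 to 14.8 on amplified arrays (median 9.71) and 54.5 to 79.0 on nonamplified arrays (median 66.8) and dropped out on 6 of 8, and Pdhb at 1448214_at, on 4 of 8. Both genes rose at their lead probe set, with 0 dropouts there.

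Where probe sets of 1 enzyme were lowest on the same array was also counted. For 33 of 75 pairs of tested probe sets of 1 enzyme (44%), the lowest value fell on the same amplified array, and for 18 of 75 (24%) on the same nonamplified array. Over all genes these shares were 21.3% on amplified arrays and 17.1% on nonamplified arrays. With the _x_at and _s_at types left out, the enzyme pairs gave 9 of 30 (30%) on amplified arrays and 7 of 30 (23.3%) on nonamplified arrays, and all genes gave 15.7% on amplified and 16% on nonamplified arrays. These are descriptions without a test, since pairs of 1 gene share arrays and often probes. Of the 83 tested probe sets, 22 had their lowest amplified value on amplified array 3 and 18 their highest on amplified array 8.

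Gapdh, the glycolytic enzyme between the hexose and the triose steps, is measured on this array by control probe sets placed at the 3′ end, the middle and the 5′ end of its transcript. At the 3′ end it averaged 8761 ± 441 on amplified arrays and 7797 ± 185 on nonamplified arrays (SD, n = 8 each), a log2 fold change of 0.17 (exact 2-sided permutation p = 0.000155). The middle probe set averaged 7189 ± 926 on amplified arrays and 8484 ± 222 on nonamplified arrays, a change of -0.25 (exact permutation p = 0.00218). At the 5′ end the averages were 3502 ± 966 on amplified arrays and 9309 ± 217 on nonamplified arrays, a change of -1.46 (exact permutation p = 0.000155). The log2 difference between the 3′ and 5′ probe sets was 1.37 ± 0.40 on amplified arrays and -0.26 ± 0.015 on nonamplified arrays, so the signal of 1 transcript changed by 1.63 between its ends (exact permutation p = 0.000155, adjusted p = 0.000311 over 2 transcripts). The other transcript with such control probe sets among the enzymes of these pathways was Pcx, pyruvate carboxylase, whose control probe sets all read under 350. Its 3′ minus 5′ difference was -1.87 ± 1.38 on amplified arrays and -0.65 ± 0.13 on nonamplified arrays, a change of -1.21 (exact permutation p = 0.0315, adjusted p = 0.0315). The position of the other enzyme probe sets along their transcripts was not used here, and its part in their fold changes was not tested.

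**Figure D5:**
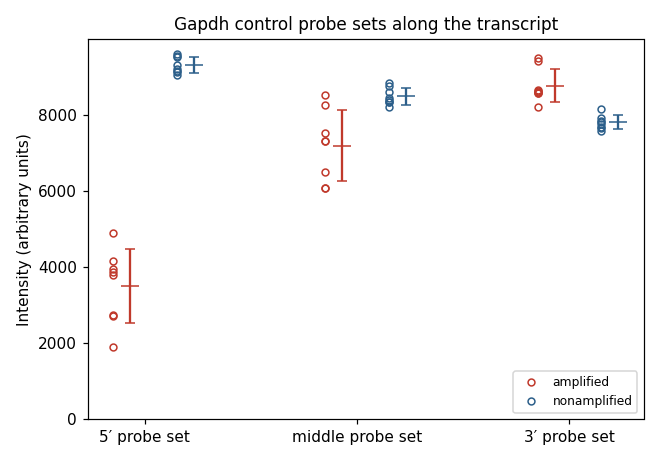
Intensity of the Gapdh control probe sets at the 5′ end, the middle and the 3′ end of the transcript, on a linear axis from 0. Circles are single arrays, 8 amplified in red and 8 nonamplified in blue, with the mean and SD beside them. Amplified arrays average 3502 at the 5′ end and 8761 at the 3′ end, while nonamplified arrays average 9309 and 7797.

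Further enzymes, transporters and regulators of the same pathways were also measured. Of 59 such genes, 53 had a probe set and 45 passed the filter: 8 rose, 17 fell and 20 did not pass the test, by lead probe sets and as deposited, where 23.5% of all genes were called higher and 29.4% lower. Their median log2 fold change was -0.52, against -0.15 over all genes. Pgls, the lactonase of the pentose phosphate pathway, had values of 738 to 7249 on amplified arrays (median 4279) and 357 to 438 on nonamplified arrays (median 399), a rise of 3.07 (SE 0.36, adjusted p = 1.48e-06). Glucose transporters had opposite calls within a gene. Slc2a1 had 0.87 at its lead probe set (adjusted p = 1.52e-08), 0.47 at another (adjusted p = 0.000212) and -0.55 at a further one (adjusted p = 0.0247). For Slc2a3, 2 probe sets were called higher, at 0.43 (adjusted p = 0.00011) and 0.56 (adjusted p = 1.34e-05), and 2 were called lower, at -5.87 (adjusted p = 8.16e-13) and -5.01 (adjusted p = 1.47e-14). At the lowest of these, Slc2a3 read 2.85 to 53.0 on amplified arrays (median 9.49) and 1559 to 1778 on nonamplified arrays (median 1758), while its lead probe set read 4995 to 6721 on amplified arrays (median 5711) and 4107 to 4452 on nonamplified arrays (median 4249). The lactate and pyruvate transporters went opposite ways, Slc16a3 with 1.33 (adjusted p = 0.00118) and Slc16a1 with -2.63 (adjusted p = 4.29e-06). Slc16a1 read 43.8 to 441 on amplified arrays (median 214) and 1083 to 1195 on nonamplified arrays (median 1165), with no overlap.

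Some partners of 2 complexes whose subunits are described above fell at their lead probe sets, and others did not. Pdhx, which anchors the dehydrogenase component Dld to the pyruvate dehydrogenase core, had -2.96 (SE 0.37, adjusted p = 2.56e-06), and Dld itself had -2.05 at its lead probe set (SE 0.48, adjusted p = 0.0014) and 0.06, not called, at another, while Pdhb and Pdk1 rose. Sdhaf2, which helps attach flavin to Sdha, had -3.01 at its lead probe set (SE 0.40, adjusted p = 6.13e-06) and -0.86, not called, at another (adjusted p = 0.337). Sdhaf1, another assembly factor, had 1.07, not called (adjusted p = 0.0993). Among regulators of the pyruvate dehydrogenase complex, Pdk2 had 0.48 (adjusted p = 0.00145) and Pdk3 -1.03 (adjusted p = 0.0425) at lead probe sets. Pdp1 and Pdpr were not called there, at -0.27 and -0.01. Acly, which cleaves exported citrate to acetyl-CoA, had 6 tested probe sets with opposite calls. The lead probe set had -0.94 (adjusted p = 1.24e-08), with values of 835 to 1141 on amplified arrays and 1727 to 1939 on nonamplified arrays. Another had -4.41 (adjusted p = 7.78e-15), 2 were called higher at 0.47 (adjusted p = 0.0012) and 0.91 (adjusted p = 0.000161), and the rest were not called. Other scalings were not applied to these partner genes one by one.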

How the data were processed

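Arrays were grouped by the sample titles into 8 amplified and 8 nonamplified arrays. Per the labels' protocols, amplified cDNA and total RNA both went through Affymetrix one-cycle labelling. The authors deposited a linear intensity for every probe set on every array, with a lowest value of 1. Which software summarised the probes and how arrays were scaled was not given in the sources used here. Values were used as deposited. The number of arrays limits the precision.

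Gene symbols came from the platform annotation, updated through RefSeq (GRCm38.p6): 34945 probe sets had 1 symbol, 932 several and 9160 none here. After 64 control probe sets were set aside, the test took the 27022 probe sets whose mean log2(intensity + 16) over 16 arrays exceeded the 40th percentile (intensity 33.7). The pseudocount understates changes of dim probe sets. The 2 groups were fitted in limma 3.58.1 (lmFit, eBayes; R 4.3.3) with no covariate, and 2-sided p-values were adjusted by Benjamini-Hochberg over all tested probe sets, genes or differences. The spread was compared by the same fit on absolute deviations from the group median, probe sets of 1 gene on within-array differences, and isozymes, with 1 subunit pair, by exact permutation tests adjusted over 8 pairs. The fits were also run on simulated data with independent normal errors and no floor. That run does not cover dropouts, and no result is drawn from it.

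Full values are given per role for the gene with the highest mean without amplification and for the called genes of the largest rise and fall. They are also given for genes with opposite calls, dropouts on at least 4 amplified arrays, or the 3 largest or smallest SDs. Values of other probe sets, partner genes and further enzymes were picked for the text after they were seen. The genes and lists were chosen with earlier results of these data known. Python 3.11.15 and matplotlib 3.10.9 drew the figures. Alternatives were pseudocounts of 1 and 64, 4 other scalings, filters, weights, a robust trend, a replicate block, leaving out each array, other probe set choices and other dropout limits.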

Additional observations from a re-analysis of the deposited data

Results flagged for a closer look

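In 6 of 74 groups of 8 arrays (37 genes in 2 groups), 1 array stood far from the others by Dixon's test, which chance flags in about 1 of 20 groups. In 5 of them it was the lowest amplified array. Hk2 read 2.18 on amplified array 2 and 647 to 3333 on the others, and Dlst read 1 on the same array and 91.0 to 325 on the others. Pfkp read 265 on amplified array 1 and 514 to 920 on the others. Pdha1 read 344 on amplified array 3 and 999 to 1743 on the others. Sdhc read 112 on amplified array 5 and 309 to 555 on the others. The exception was Dlat, which read 384 on nonamplified array 2 and 308 to 338 on the other nonamplified arrays. These values were not left out of the tests.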

How the results depend on the processing

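Scaling moved the enzyme calls most. Higher and lower calls among 83 probe sets were 25 and 29 as deposited, 7 and 47 after quantile normalization, 37 and 17 after median centring, 34 and 21 on the brighter 50% and 10 and 40 on the hybridization controls. With 1 probe set per gene they were 12 and 10 as deposited, 4 and 19, 19 and 4, 17 and 4, and 6 and 15 under the same scalings. Without _x_at and _s_at probe sets, 15 of 58 were called higher, and 12 of 23 differences within genes were called. Leaving out 1 array gave 23 to 25 higher and 28 to 31 lower probe sets, 10 to 12 higher and 9 to 11 lower genes, 24 to 26 differences within genes, and 16 to 29 more variable probe sets against 40 with all arrays. With 7 arrays in a group the median is itself 1 array, whose deviation is then 0. The count of more variable probe sets was 8 on the hybridization controls, 26 with the replicate block, 54 with deviations from the mean and 58 on log2 deviations, an alternative chosen after seeing the data. Probe sets with a dropout numbered 10, against 16, with the upper 25% as present. The change of Pfkl minus Pfkm was 0.57 after quantile normalization (adjusted p = 0.0895), against 1.61.

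Fold changes that changed sign, with the deposited or the altered value called, were, after quantile normalization, Aldoa -0.75, Pgk1 -0.096, Pgam1 -0.73, Ldha -0.52, Cs -0.22, Idh3a -0.63, Sdhb -0.0075 and Tkt -0.86. On the hybridization controls they were Pgam1 -0.32, Ldha -0.26 and Tkt -0.42, after median centring Tpi1 0.43 and Ldhb 0.085, and on the brighter 50% Tpi1 0.24. With the probe set of the highest mean over all 16 arrays, Idh3g had 0.80 and Sdhd 0.033. Scaling also gave calls without a change of sign. Called higher were Pfkl 0.90, Aldoa 0.64, Pgam1 0.67, Idh2 0.65, Idh3a 0.68 and Tkt 0.57 after median centring. On the brighter 50% they were Pfkl 0.71, Aldoa 0.45, Pgam1 0.47 and Tkt 0.37. Tpi1, Pkm, Pdha1 and Sdha were called lower after quantile normalization and on the hybridization controls. Beyond scaling and probe set choice the causes were not tested.

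Same-numbered arrays of the 2 groups did not deviate together (correlations -0.0078 to 0.018 over probe sets, 0 of 8 over 0.1, and 3 of 8 amplified arrays correlated best with their own number), so the numbers were not taken as pairs. With the replicate number as a block, 22 probe sets were called higher and 29 lower, 11 genes higher and 9 lower, and Ldha was not called (adjusted p = 0.0949). Signal near background limits probe sets at or near the lowest value of 1, whose fold changes depend on the pseudocount.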
